A study of Rattus norvegicus and Heterocephalus glaber with 6 samples.

Results

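The genes described here are the metallothioneins Mt1a, Mt2A and Mt3, the zinc-sensing transcription factor Mtf1, the exporters Slc30a1 and Slc30a10, and the importers Slc39a14 and Slc39a4. These 8 genes were taken by symbol, ignoring case, from the deposited tables of liver polyadenylated RNA; they were selected on their function with the FPKM values of these libraries already known. All 8 were among the 22549 rows of each rat table, and 1 of them, MT3, was among the 734 rows of each naked mole rat table. The rats (Rattus norvegicus) and the naked mole rats (Heterocephalus glaber), long-lived burrowing rodents that tolerate low oxygen, had been kept in 8% oxygen for 8 hours before the liver was taken, with 3 libraries per species. The labels name no strain, age, genotype or further treatment, all 6 libraries share the low-oxygen exposure, and the normoxia libraries that the series design mentions were not analysed here. No effect of oxygen was therefore tested. The labels number the libraries of a species as replicates and do not tie them to separate animals, so their spread, and any p-value, may be partly technical.

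Metallothioneins are short, cysteine-rich proteins that bind zinc and copper and buffer the free zinc of the cell. When free zinc rises, MTF1 binds metal response elements in the promoters of metallothionein genes and of Slc30a1, whose product moves zinc out of the cell. In liver, metallothionein transcription also responds to glucocorticoids and to the cytokines of the acute-phase response, and the importer Slc39a14 is known as the transporter that brings zinc into hepatocytes during inflammation. The SLC30 (ZnT) family lowers cytosolic zinc and the SLC39 (ZIP) family raises it.

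The promoters of Mt1a and Mt2A, which were abundant, of Mt3, which was listed at 0 in rat, and of Slc30a1, an exporter gene under MTF1 control, are shown first, because the results turn on these genes and their promoters differ in the number of metal response element cores. Sequences are the 250 bases before the annotated start site from RefSeq (GRCr8), on the gene's own strand. RefSeq lists Mt1a as Mt1, with Mt1a as a synonym. Of 9 genes looked up, these 8 and Mt4, 6 had a promoter entry; Slc30a10, Slc39a14 and Slc39a4 did not. Capitals mark the metal response element core, searched as TGCACNC or TGCGCNC on both strands.
Mt1a promoter, chr19:10832976-10833225, minus strand: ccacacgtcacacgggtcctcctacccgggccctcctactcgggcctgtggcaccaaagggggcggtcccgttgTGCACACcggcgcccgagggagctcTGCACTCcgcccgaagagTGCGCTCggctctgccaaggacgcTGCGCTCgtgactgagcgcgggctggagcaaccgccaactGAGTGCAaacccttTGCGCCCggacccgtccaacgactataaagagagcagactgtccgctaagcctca
Mt2A promoter, chr19:10838709-10838958, minus strand: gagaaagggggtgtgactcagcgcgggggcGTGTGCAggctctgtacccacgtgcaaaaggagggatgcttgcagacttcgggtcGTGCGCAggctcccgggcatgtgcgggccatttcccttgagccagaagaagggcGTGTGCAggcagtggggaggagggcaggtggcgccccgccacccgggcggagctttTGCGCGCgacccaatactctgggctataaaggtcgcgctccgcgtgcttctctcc
Mt3 promoter, chr19:10856081-10856330, minus strand: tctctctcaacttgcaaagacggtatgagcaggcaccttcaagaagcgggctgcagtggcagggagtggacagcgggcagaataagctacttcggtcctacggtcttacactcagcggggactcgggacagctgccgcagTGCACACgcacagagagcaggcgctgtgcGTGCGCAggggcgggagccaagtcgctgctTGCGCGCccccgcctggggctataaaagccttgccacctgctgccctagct
Slc30a1 promoter, chr13:106021769-106022018, plus strand: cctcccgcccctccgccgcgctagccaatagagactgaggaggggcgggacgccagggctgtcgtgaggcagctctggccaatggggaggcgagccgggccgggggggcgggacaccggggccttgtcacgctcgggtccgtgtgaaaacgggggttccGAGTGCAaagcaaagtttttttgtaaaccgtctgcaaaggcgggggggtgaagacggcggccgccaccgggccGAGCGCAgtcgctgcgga

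The Mt1a promoter held 6 cores that did not overlap, 5 on the gene's strand and 1 on the other, between 49 and 176 bases before the start site. Mt2A held 4, the farthest 220 bases and the nearest 49 bases before the start site. Mt3, which was listed at 0 in rat liver, held 3, and Mt4, its neighbour, held 1. Mtf1 and Slc30a1 held 2 each. Over 33469 RefSeq rat promoters of the same 250 bases, 20.6% held at least 1 core, 4.90% at least 2 and 1.17% at least 3. At least 4 were held by 0.266% and at least 6 by 0.0269%. The promoters were not matched by base composition. A core found by its letters is a description of the sequence and not a bound site, and the Mt3 promoter shows that cores were also present in front of a gene with no measured RNA here.

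The hypoxia response element core, which the hypoxia-inducible factors recognise, was searched as ACGTG or GCGTG on both strands. Mt2A held 5 matches, of which a pair lay on opposite strands of the same stretch and overlapped, and others overlapped metal response cores. Mt1a, Mtf1 and Slc30a1 held 1 each, Mt3 held 2 and Mt4 held 0. At least 1 such match was present in 36.7% of all promoters and at least 5 in 1.04%. The letters TTCNNNGAA, the core of a STAT binding site, were in 7.67% of all promoters and in 0 of these 6.

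**Figure D1:**
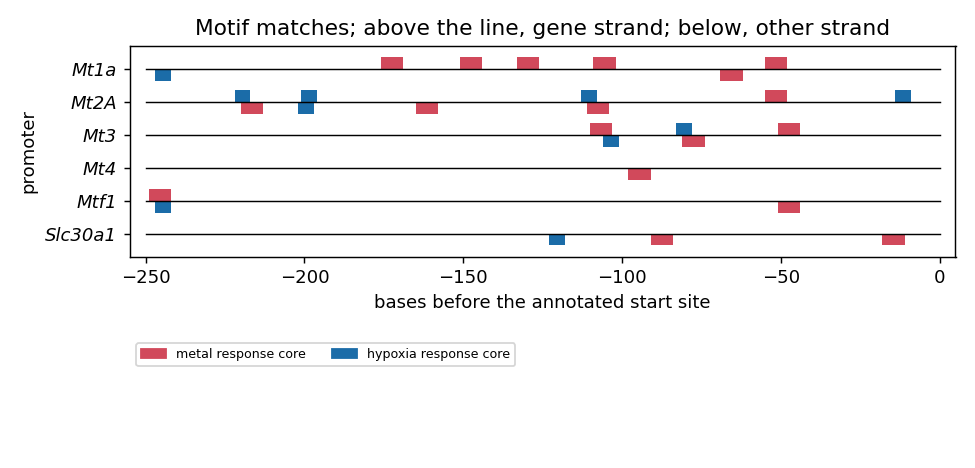
Matches to the metal response and hypoxia response cores in the 250 bases before the start site of 6 rat genes, with distance from the start site on the x axis and each gene on its own line. Blocks above a line are on the gene's strand and blocks below on the other strand; Mt1a carries 6 metal response cores and Mt4 carries 1.

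Mt1a and Mt2A were among the abundant transcripts of rat liver and differed several-fold between the rats. Levels are FPKM, which scale fragments by transcript length and by library size, so that levels of different genes can be roughly set side by side. Mt1a and Mt2A exceeded the upper confidence bounds of their own rows (given below). What this does to their ranks, shares and order among genes was not tested. In rats 1, 2 and 3, Mt1a stood at 2612, 839 and 1238 FPKM, a mean of 1563 ± 930 (SD, n = 3). Rat 1 lay above the others and rat 2 lowest. Mt2A stood at 2405, 442 and 1217 FPKM in rats 1, 2 and 3, a mean of 1355 ± 989 (SD, n = 3), in the same order. The values of both genes overlapped over the rats, although Mt1a lay above Mt2A in each rat. In liver as a whole, fewer cells of a type and less RNA per cell cannot be told apart.

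Together, Mt1a and Mt2A made up 0.944% of the FPKM total in rat 1, 0.243% in rat 2 and 0.462% in rat 3, with albumin left out because its row has a usable value in rat 3 only. By level, Mt1a ranked 28 in rat 1, 82 in rat 2 and 51 in rat 3 among 22548 rows, and Mt2A ranked 32, 162 and 55. The genes did not differ between rats by one common factor. Mt1a was 3.11 times higher in rat 1 than in rat 2, and Mt2A 5.44 times. The ratio of Mt1a to Mt2A was 1.09 in rat 1, 1.90 in rat 2 and 1.02 in rat 3. As members of a family of similar genes, Mt1a and Mt2A can share reads, which was not measured, so this ratio is uncertain.

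The spread was measured as the highest minus the lowest log2(FPKM + 1) over the 3 rats, a scale that understates the spread of low genes. It was 1.64 for Mt1a and 2.44 for Mt2A, against a median of 0.26 over the 9994 rat rows that average 1 FPKM or more (expressed rows). Of those rows, 3.04% had a spread of at least 1, which is 2-fold on this scale; among the members, Mt1a and Mt2A reached it and the 5 other members that average 1 FPKM or more did not. A wider spread than that of Mt1a was found in 0.750% of the rows, and a wider one than that of Mt2A in 0.210%. The rats form a single group, and the members were chosen with these values known, so the spread is a description and has no test. Without rat 1, the spread of Mt1a was 0.56 and its mean 1039 FPKM, and the mean of Mt2A was 830 FPKM. Without rat 2, the spread of Mt2A was 0.98.

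The values of both genes lay outside the bounds that the tables give them. In each rat the Mt1a value lay above the upper confidence bound printed in its own row, by a factor of 1.73, 1.68 and 1.72 in rats 1, 2 and 3. For Mt2A the factors were 1.75, 1.65 and 1.74. Values at least 1.5 times their own upper bound were seen in 55 to 61 rows per rat library, or 0.548% to 0.609% of the rows at 1 FPKM or more. The other 5 members with a level above 0 lay at 0.867 to 0.999 times their upper bound. What this excess over the bounds does to the levels or to their spread was not tested.

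**Figure D2:**
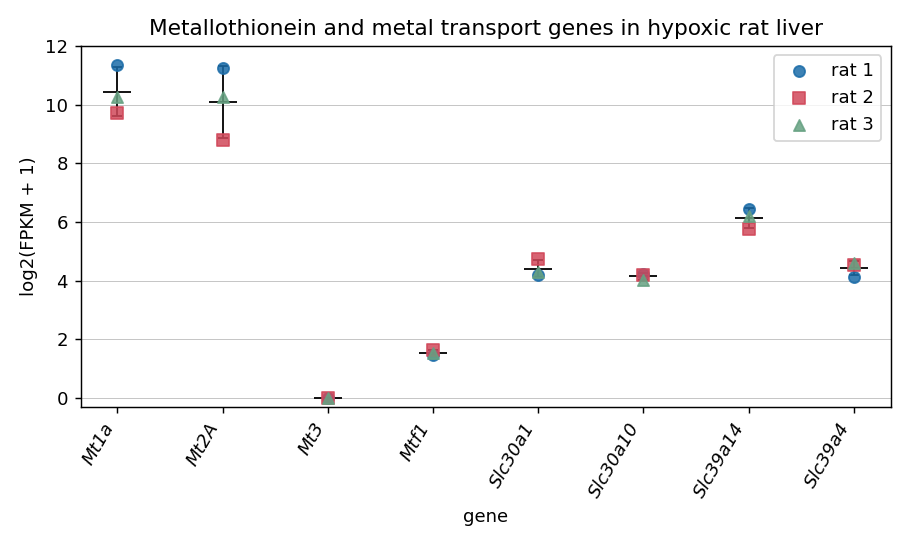
Level of each of the 8 genes as log2(FPKM + 1), with a marker for each rat library and a black bar for the mean ± SD over 3 libraries. Mt1a and Mt2A lie above all the others and are widest, and Mt3 is listed at 0 in every rat.

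**Figure D3:**
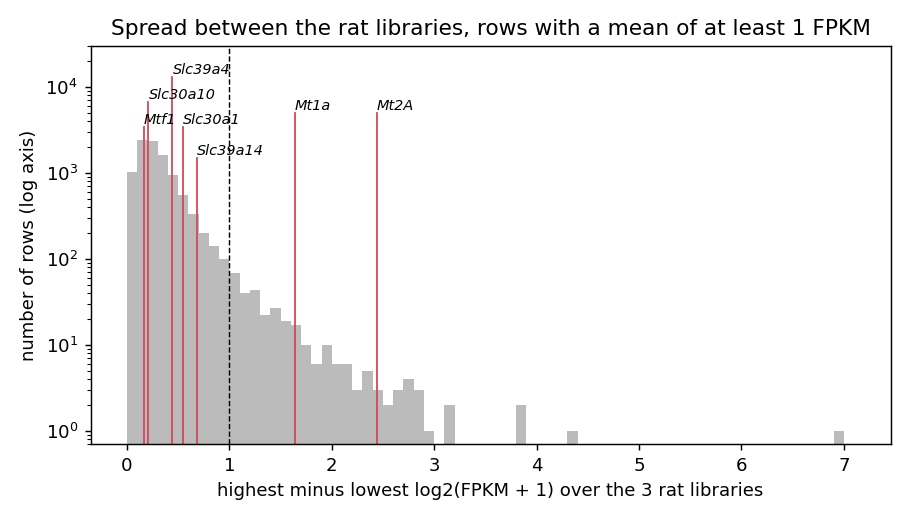
Number of rat rows (log axis) by the highest minus the lowest log2(FPKM + 1) over the 3 rats, for the 9994 expressed rows (averaging 1 FPKM or more). Red lines mark the 7 members in this set and the dashed line marks a spread of 1; Mt1a at 1.64 and Mt2A at 2.44 lie beyond it.

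The metallothionein genes lie side by side on rat chromosome 19. In the deposited tables, whose genome build is not given in the sources used here, Mt1a runs from 11261631 to 11262647 and Mt2A from 11267811 to 11268585. Mt3 runs from 11284554 to 11286402 and Mt4 from 11300057 to 11302153, so the 4 genes fall within 40523 bp. Mt3, the metallothionein known from brain, and Mt4, known from stratified epithelia, were listed at 0 in each rat. The flanking genes were low and even: Nup93, a nuclear pore component, was at 2.12, 2.02 and 2.41 FPKM in rats 1, 2 and 3, and Bbs2, a ciliary gene, at 3.16, 3.93 and 3.99. The wide spread of Mt1a and Mt2A was thus not seen in these rows beside them.

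Mtf1, the zinc-sensing factor, was present at a low and even level. Its level was 1.77, 2.11 and 1.88 FPKM in rats 1, 2 and 3, a mean of 1.92 ± 0.169 (SD, n = 3). Its spread of 0.16 on log2(FPKM + 1) was narrower than that of 75.0% of expressed rows; it was 0.06 without rat 2 and 0.25 with no pseudocount. Rat 1, with the highest metallothionein levels, had the lowest Mtf1 value, but the 3 values lay close together.

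Of the exporters, Slc30a1, which moves zinc across the plasma membrane, was highest in the rat with the lowest metallothionein. Its level was 17.2, 25.6 and 18.6 FPKM in rats 1, 2 and 3, a mean of 20.5 ± 4.48 (SD, n = 3). Rats 1 and 3 lay close together and rat 2 stood 1.49 times above the lowest; without rat 2 the spread was 0.11 in place of 0.55 on log2(FPKM + 1). Slc30a10, known chiefly as an exporter of manganese, stood at 17.7, 17.4 and 15.1 FPKM, a mean of 16.7 ± 1.38 (SD, n = 3), with little difference between the rats.

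Of the importers, Slc39a14 was the most abundant zinc transporter of either family. Its level was 85.1, 52.7 and 73.5 FPKM in rats 1, 2 and 3, a mean of 70.4 ± 16.4 (SD, n = 3), in the order of Mt1a and Mt2A. Its spread was 0.68, wider than in 92.0% of expressed rows, yet under the 2-fold mark; without rat 2 it was 0.21. Slc39a4, known for zinc uptake in the intestine, stood at 16.7, 22.3 and 23.0 FPKM in rats 1, 2 and 3, a mean of 20.7 ± 3.50 (SD, n = 3). Its lowest value was in rat 1, where Slc39a14 was highest, and the ratio of Slc39a14 to Slc39a4 was 5.11 in rat 1, 2.36 in rat 2 and 3.19 in rat 3. Without rat 1 the spread of Slc39a4 was 0.04 in place of 0.44.

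By mean level the order was Mt1a, Mt2A, Slc39a14, Slc39a4, Slc30a1, Slc30a10, Mtf1 and Mt3. Mt1a lay above Mt2A in each rat, but their values overlapped over the rats and shared reads leave that order uncertain. The values of Slc39a4, Slc30a1 and Slc30a10 also overlapped. Slc39a14 lay above those 3 and below Mt1a and Mt2A in each rat. The level of Mtf1 lay below that of the transporters among the members in each rat.

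In the whole families, 10 SLC30 and 14 SLC39 genes were in the rat tables. A mean of at least 1 FPKM was reached by 19 of these 24, and 8 reached 10 FPKM, against 44.3% and 17.3% of all rat rows. None of the 19 had a spread of at least 1 on log2(FPKM + 1), where the share over all such rows was 3.04%, and their median spread was 0.28, near the 0.26 of all rows. The summed SLC30 level was 65.8, 73.9 and 67.0 FPKM in rats 1, 2 and 3. The summed SLC39 level was 219, 179 and 224 FPKM, of which Slc39a14 made up 38.9%, 29.4% and 32.7%. The order of the rats in metallothionein level was therefore not repeated in the sum of either family. Among the 19 genes, 2 had that order, Slc39a14 and Slc39a1. This count is near the share of 8.56% over all expressed rows.

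Besides the members, 4 genes of these families reached 10 FPKM. Slc39a7, which releases zinc from the endoplasmic reticulum, stood at 47.2, 35.7 and 57.3 FPKM in rats 1, 2 and 3, a mean of 46.7 ± 10.8 (SD, n = 3). Its spread of 0.67 was close to that of Slc39a14, but its highest value was in rat 3. Slc39a1, a plasma membrane importer, was even between rats at 34.9, 30.7 and 32.1 FPKM. Slc30a9, which acts on mitochondrial zinc, stood at 10.7, 10.6 and 9.79 FPKM, and Slc39a3 at 9.49, 9.86 and 10.8. Slc30a8, the zinc transporter of insulin granules, and Slc39a12 were listed at 0 in every rat.

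Slc30a2 was noticed after its values were seen. Its values were 0.472, 1.22 and 0.0859 FPKM in rats 1, 2 and 3, under the mean of 1 FPKM used for the counts.

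**Figure D4:**
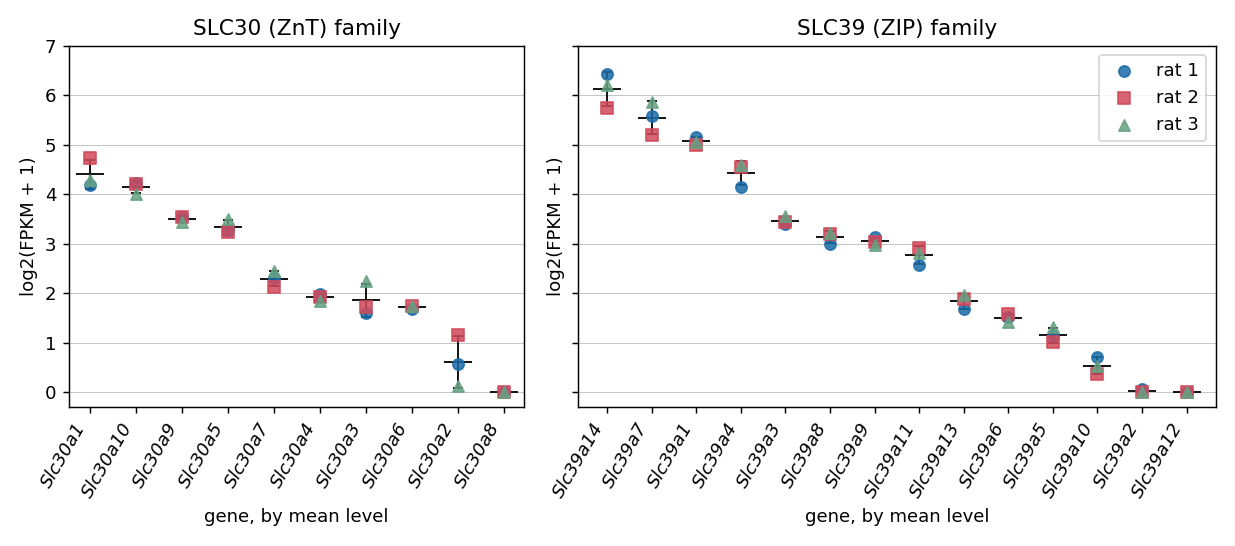
Levels of the SLC30 genes (left) and SLC39 genes (right) as log2(FPKM + 1), ordered by mean level, with a marker for each rat library and black bars for the mean ± SD over 3 libraries. Slc39a14 is the highest of both families, and the markers of each gene with a mean of at least 1 FPKM lie less than 1 apart.

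Other genes of metal handling were compared in the same way. Of 8 copper handling genes, 7 reached 1 FPKM and none had a spread of at least 1; with a share of 3.04% over all expressed rows, a count of 0 among 7 is near the background. Atox1, a copper chaperone, was at 160 ± 14.9 FPKM (SD, n = 3), the importer Slc31a1 at 91.5 ± 6.47, the superoxide dismutase chaperone Ccs at 81.9 ± 4.31, Commd1 at 35.9 ± 3.23, and ceruloplasmin (Cp), the copper-carrying plasma protein, at 352 ± 86.8.

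Of the further metal-responsive genes, Hamp, the iron hormone hepcidin, had the widest spread: 1124, 173 and 627 FPKM in rats 1, 2 and 3. As for Mt1a and Mt2A, these values lay above the upper bounds of their own row, by factors of 1.81, 1.65 and 1.80. Gclc, of glutathione synthesis, was highest in rat 2, at 19.0, 28.3 and 18.5 FPKM in rats 1, 2 and 3, as Slc30a1 was. The iron exporter Slc40a1 was at 20.4 ± 2.67 FPKM and the selenoprotein gene Sepw1 at 19.4 ± 4.79 (SD, n = 3). Hamp alone of these 4 passed a spread of 1.

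Acute-phase and glucocorticoid-responsive genes, whose signals are known to act on metallothionein genes in liver, were measured in the same libraries. Of 14 acute-phase genes, 8 had a spread of at least 1 (3.04% of all expressed rows), with a median of 1.09, and 9 had their highest level in rat 1, then rat 3, then rat 2. That order held for 8.56% of all expressed rows, and for Mt1a, Mt2A and Slc39a14 among the members. The order was noticed in these data, and the list was chosen with earlier results of these data known. The counts of the order and of the spread are therefore descriptions. The widest of the acute-phase genes were A2m, Lcn2 and Fga. A2m, a protease inhibitor of rat plasma, was at 191, 0.571 and 52.3 FPKM in rats 1, 2 and 3. Lcn2, an iron-sequestering lipocalin, was at 7.82, 0 and 3.08, and Fga, a fibrinogen chain, at 6782, 1451 and 6984. All 3 were lowest in rat 2.

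Of 10 glucocorticoid-responsive genes, 4 (Tat, Pck1, G6pc and Igfbp1) had a spread of at least 1, against 3.04% of all expressed rows. This list too was chosen with earlier results known, so the count is a description. The spread was under 1 for Dusp1 (0.90), Fkbp5 (0.89), Sgk1 (0.71), Per1 (0.61) and Tsc22d3 (0.35). Nr3c1, the glucocorticoid receptor gene, had a spread of 0.30 and was highest in rat 2. The order rat 1, then rat 3, then rat 2 held for 5 of the 10, against 8.56% of all expressed rows, and is likewise a description. Rat 2 was lowest for 9 of the 10 and for 22.6% of all expressed rows, a count chosen after the values were seen. Igfbp1 was at 97.5, 22.4 and 68.4 FPKM in rats 1, 2 and 3, Tat, an amino acid catabolic enzyme, at 1023, 429 and 1220, and Pck1, of gluconeogenesis, at 817, 451 and 1139. Tat and Pck1, like Fga of the acute-phase genes, were highest in rat 3, where Mt1a and Mt2A were intermediate. What these genes and the metallothioneins share beyond the order of 3 libraries was not tested.

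**Figure D5:**
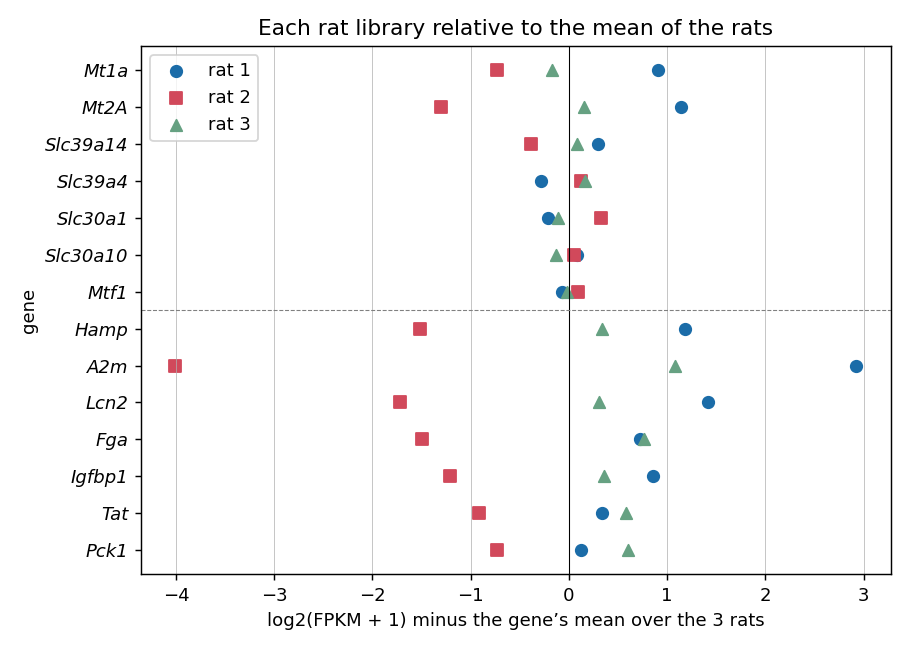
Each rat library as log2(FPKM + 1) minus the gene's mean over the 3 rats, for the 7 members above 0 (above the dashed line) and for Hamp and the widest acute-phase and glucocorticoid-responsive genes (below it). Rat 2 is lowest for Mt1a, Mt2A, Slc39a14 and all 7 genes below the line, and highest for Slc30a1 and Mtf1.

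Rows whose pattern over the rats was most like each metallothionein were taken from the 3908 rows that average 10 FPKM or more, by the distance between centred log2(FPKM + 1) values over 3 libraries. For Mt2A the closest were Hamp (distance 0.28), Igfbp1 (0.35), Gadd45b (0.43), Hsd17b6 (0.54) and LOC100362350 (0.56). For Mt1a they were LOC100362350 (0.17), Hsd17b6 (0.19), RT1-A3 (0.24), Btg2 (0.27) and Akr1c21 (0.35). Mt1a ranked 8 among the rows nearest to Mt2A, and Mt2A ranked 39 among those nearest to Mt1a, at a distance of 0.70. The pair thus shared the order of the rats more than the sizes of the differences. With 3 libraries, likeness of this kind is a description of these samples.

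The rat libraries were checked for the labelled tissue and for other cells. Of 10 hepatocyte markers, 8 had values in each rat and all 8 exceeded a mean of 100 FPKM. Their sum was 40695, 49970 and 41162 FPKM in rats 1, 2 and 3, highest where metallothionein was lowest. The markers did not all follow the sum: 5 were highest in rat 2, 1 in rat 1 and 2 in rat 3. Rat 2 was lowest for 2 of them, Tat included. Hbb, the erythroid marker with a row, was at 54.4, 357 and 348 FPKM, lowest in rat 1. Summed macrophage or Kupffer cell markers ran from 131 to 204 FPKM (7 of 8 with a row, Marco at 0), sinusoidal endothelial markers from 80.2 to 87.2 (5 of 7), stellate cell or fibroblast markers from 25.1 to 34.5 (6 of 7) and cholangiocyte markers from 11.6 to 16.6 (4 of 4). Neutrophil markers ran from 2.23 to 10.1 (4 of 4, Elane at 0), T cell markers from 7.22 to 13.3 (3 of 3), B cell markers from 0.733 to 2.15 (3 of 3) and pancreatic acinar markers from 4.60 to 8.14 (5 of 6, with Prss1, Cpa1 and Pnlip at 0). The macrophage, cholangiocyte, neutrophil, T cell, B cell, acinar and erythroid sums were lowest in rat 1, and their part in the metallothionein levels was not tested. Steps among values under 0.1 FPKM gave a depth ratio of 1.05 for rat 1 over rat 2 and of 0.983 for rat 1 over rat 3; the absolute depth is unknown.

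MT3 was the only member with a row in both species. In naked mole rat it stood at 7.37 FPKM in library 1, 5.88 in library 2 and 1.80 in library 3, a mean of 5.02 ± 2.88 (SD, n = 3). Each library lay above the rat row, which was listed at 0 in every rat, so the species did not overlap and no fold is given. Library 3 was the lowest and library 1 stood 4.10 times above it. The confidence bounds printed for MT3 were wide, at 2.99 to 7.47, 2.15 to 6.03 and 0.438 to 2.77 FPKM in libraries 1, 2 and 3. The spread of 1.58 on log2(FPKM + 1) was exceeded by 3.76% of the 319 naked mole rat rows that average 1 FPKM or more.

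MT3 entered the fit over 289 shared symbols only through its naked mole rat libraries, and all its rat values are 0, so it had to differ there. Its call toward naked mole rat (limma, Benjamini-Hochberg adjusted p = 0.000422, 3 of 3 libraries above all rats) is therefore no support beyond the values themselves. A call in that direction was made for 32.5% of the shared symbols. An exact permutation test of MT3 alone gave p = 0.1 (two-sided), the smallest that 3 libraries against 3 allow. The naked mole rat row, on scaffold74468 from 2460 to 15811, spans 13352 bp, and the rat Mt3 row 1849 bp, a ratio of 7.22. It is the only row on that scaffold and the only row named as a metallothionein in those tables, and whether it takes in fragments of other metallothionein genes was not tested. Species, genome and annotation cannot be told apart here. Of the 10 hepatocyte markers, 0 had a row in the naked mole rat tables as used here, so the tissue label could not be checked in that species, and 0 rows were named SLC30 or SLC39 genes.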

How the data were processed

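Polyadenylated liver RNA of 3 rat and 3 naked mole rat libraries was used, grouped by sample title. The values are FPKM as the authors deposited them, per the file headers, 1 Cufflinks gene table per library. Tools named in the submitters' processing notes are TopHat2 2.0.9 with Bowtie2 2.1.0, Picard 1.137 and Cufflinks 2.1.1; the build and annotation are not given in the sources used. Rows with the status HIDATA (albumin in rats 1 and 2) were treated as missing. Table starts were taken to count from 0, so 1 was added to each start. The end minus the start equalled the RefSeq length for 1701 of 13522 matched rows. The end minus the start plus 1 equalled it for 110.

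Rat levels were used as deposited and described by mean, SD and spread. For the species, symbols were matched ignoring case and rows of a symbol summed (388 symbols), libraries were scaled by the median ratio, symbols reaching a scaled FPKM of 1 in 3 libraries were kept, and log2(scaled FPKM + 1) was tested with limma 3.58.1 in R 4.3.3, with the trend option and Benjamini-Hochberg adjusted p-values. A call needed a log2 difference of 1 or more at an adjusted p below 0.05. The limma step was tested on simulated data in which every value was positive, so a row such as MT3, with no signal in rat, was not covered. FPKM hold no counts, so no counting interval was computed. Motifs were searched in RefSeq GRCr8 promoters with Python 3.11.15.

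The members and lists were chosen with earlier results of these data known. Named genes are the 8 members and genes of the metal lists with a mean of at least 10 FPKM or a spread of at least 1. The 3 widest acute-phase and glucocorticoid-responsive genes each, and the 5 rows most like each wide member, are named too. The other glucocorticoid-responsive genes were named after their values were seen. Alternatives were the scaling, pseudocount, filter, a replicate block and leaving out each library.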

Additional observations from a re-analysis of the deposited data

How the results depend on the processing

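Mt1a and Mt2A were the members with a spread of at least 1 under a pseudocount of 0.1, with median-ratio scaling, and with filters of any value above 0 or a mean of at least 10 FPKM. The share of all rows with such a spread was 5.52%, 3.06%, 2.15% and 3.56% in these settings, in that order. Leaving out a rat library gave 1 to 2 such members: Mt2A alone without rat 1, Mt1a alone without rat 2, and both without rat 3. The share over all expressed rows was then 1.68%, 1.54% and 1.51%, in that order. Leaving out a library narrows a spread by construction. With no filter on the mean, 1 SLC30 or SLC39 gene, Slc30a2, had a spread of at least 1, against 0 with the filter. The share over all rows was 2.15% without the filter and 3.04% with it. Scaling each rat to 1000000 raised every level by construction, because the deposited totals are lower (Mt1a 2946, Mt2A 2552). The adjusted p of MT3 (limma) ran from 4.84e-08, without naked mole rat 3, to 0.00565 when a library was left out and the filter asked for 2 libraries; since each rat value is 0 in every setting, these values say nothing about stability.

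No sign was seen that the replicate numbers pair the species' samples. Deviations of same-numbered libraries correlated at -0.037, -0.086 and -0.044, and 0 of 3 rat libraries correlated best with their own number. With 3 libraries per species, this check cannot rule pairing out. With the replicate block, the adjusted p of MT3 was 0.00032 (limma), which again says nothing about stability because each rat value is 0. A count of 94 symbols had calls toward naked mole rat with and without the block, and whether they were the same symbols was not checked. Depth limits the low genes, such as Slc30a2 and Mtf1, most, and no absolute depth is known.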
